A study of Danio rerio with 5 samples.

Results

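Sterol synthesis genes were followed across 5 Affymetrix zebrafish arrays: enzymes that build cholesterol, and scarb1, a receptor that takes sterol up. A list of 10 genes was taken, namely hmgcs1, hmgcra, mvk, fdps, sqlea, lss, cyp51, nsdhl, dhcr7 and scarb1, and every probe set whose symbol in the platform's probe-gene table was on it was kept. This gave 12 probe sets for 7 genes, out of 15502 probe sets and 8793 genes with a symbol in all. No probe set in the table used here carried the symbols hmgcra, sqlea or lss, so these 3 genes were not analysed here.

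The fish were young adult zebrafish of the AB line, wild type in genotype, and all were held for 24 h without food. The control fish received the vehicle DMSO, and the others received benzene, toluene or formaldehyde, or the BTF mix, which joins all 3; the compounds were prepared in DMSO. Total RNA was hybridised to 1 array per condition, so there was no replicate, no test was run, and no difference below can be set against a spread between fish or arrays. The sex entry in the labels names neither male nor female, and doses, tissue and how many fish gave each RNA are not stated in the labels.

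Animal cells make cholesterol from acetyl-CoA. The early enzymes join acetyl units and build mevalonate and then the isoprenoid farnesyl pyrophosphate, which is also used for ubiquinone, dolichol and protein prenylation. The later enzymes join farnesyl units to squalene, close the sterol rings and trim the ring system to cholesterol. In mammals the enzymes are switched on together by the SREBP transcription factors when membranes run low on sterol, and the proteins Insig and Scap hold SREBP back when sterol is plentiful. In mammals Scarb1 is the scavenger receptor that takes cholesterol esters from lipoproteins, a route used by tissues that make steroids, among others.

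Before the results, the arrays themselves were compared. Values are log2 of probe set signal, and the medians of the 5 arrays lay between 6.98 and 7.06. Across probe sets, correlations among the DMSO and the 3 single-compound arrays were 0.979 to 0.992, and those of the BTF mix array with them were 0.692 to 0.739. The mix array therefore stood apart, and results for it are given separately from those on the other 4. On the mix array 12 of 12 measured oocyte markers were at least 2-fold lower than with DMSO, beside 35.8% of all genes. Their list median was -6.46. Of the markers past the filter given below, 16 of 18 liver and 13 of 14 intestine markers were at least 2-fold higher. So were 12 of 13 skeletal muscle and 9 of 9 brain and nerve markers, beside 23.2% of all genes. Some of these, such as gfap at 5.43 with DMSO and 7.64 with the mix, passed the filter only through the mix array. The nerve marker elavl3, with a difference of 0.50, did not pass and was not counted. The marker lists were chosen with earlier results of these data known, so these counts describe the arrays and give no independent support. Differences are the exposed array minus the DMSO array, and a gene entered the counts where a probe set of it reached 7.02, the median over all arrays, on any array, as 6682 genes did.

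All 7 measured genes passed that level, with 9 of their 12 probe sets; the other 3 belonged to cyp51. The gene cyp51 did so only on the mix array, with 7.03 on 1 of its 4 probe sets against 6.63 on the next. Its place in every count and median below, for the single compounds as for the mix, thus depends on its level there. Where a gene had several probe sets, the one with the highest mean stood for it and the others are given beside it. Levels of different probe sets depend on the probes and were not set against each other.

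The first enzyme of the list to act is hmgcs1, the cytosolic HMG-CoA synthase. Its level was 9.53 with DMSO, 8.92 with benzene, 9.08 with toluene, 9.01 with formaldehyde and 8.83 with the mix. The DMSO array was the highest of the 5, and the 4 exposed arrays lay close together below it. Against DMSO the differences were -0.61 with benzene, -0.45 with toluene and -0.52 with formaldehyde.

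Mevalonate kinase, mvk, phosphorylates mevalonate. It had levels of 8.32 in DMSO, 8.18 in benzene, 8.23 in toluene and 8.27 in formaldehyde fish, but the mix array read 5.87. The first 4 arrays spanned 0.14, and the difference of the mix array from DMSO was -2.44, a 5.44-fold lower signal. This gene had 1 probe set, so no other probe set checks the value.

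The gene fdps encodes farnesyl pyrophosphate synthase, the enzyme at the branch between sterols and other isoprenoids. Its first probe set read 7.74 with DMSO, 7.67 with benzene, 7.64 with toluene, 7.51 with formaldehyde and 7.10 with the mix. The second read 7.32, 7.08, 7.34 and 7.08 on those first 4 arrays and 5.504 with the mix. Both were lowest on the mix array, but by different amounts: the difference from DMSO was -0.64 on the first and -1.82 on the second. That gap of 1.18 compares with a median gap of 0.55 over 864 genes with at least 2 probe sets past the filter level, and the 2-fold line falls between the 2 probe sets.

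Lanosterol demethylase, cyp51, is a cytochrome P450 that removes a methyl group from the first ring sterols. The probe set that stood for it read 6.65 with DMSO, 6.65 with benzene, 6.49 with toluene, 6.74 with formaldehyde and 7.03 with the mix. A second read 6.35, 6.24, 6.23 and 6.07 on the first 4 arrays and 6.63 with the mix. The other 2 probe sets lay near the bottom of the scale on the first 4 arrays, between 3.24 and 3.34, and read 4.42 and 3.74 with the mix. All 4 probe sets were highest on the mix array, with differences from DMSO of 0.29 to 1.13. The largest of these came from a probe set whose name ends in x, a type whose probes can also bind transcripts of other genes.

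The sterol dehydrogenase nsdhl acts after cyp51 in the removal of methyl groups. It read 9.46 with DMSO, 9.43 with benzene, 9.51 for toluene and 9.46 for formaldehyde, but the mix array read 6.81. The first 4 arrays were nearly level, within 0.087, and the DMSO and formaldehyde values were identical as deposited. The mix array differed from DMSO by -2.65 and was thus 6.29-fold lower. Like mvk, this gene had 1 probe set, as did hmgcs1 and dhcr7, so no other probe set checks their values.

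The reductase dhcr7 catalyses a last step, from dehydrocholesterol to cholesterol. Its levels were 8.001 with DMSO, 7.84 with benzene, 7.73 with toluene, 7.91 with formaldehyde and 8.78 with the mix. Unlike mvk and nsdhl, it was highest on the mix array, 0.78 above DMSO. The 3 single-compound arrays were all below DMSO, by at most 0.27.

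The receptor scarb1 takes up sterol and does not make it. Its stronger probe set read 12.75 with DMSO, 12.68 with benzene, 12.53 with toluene, 12.61 with formaldehyde and 8.11 with the mix. The other read 11.04, 11.35, 11.08 and 11.03 on the first 4 arrays and 7.30 with the mix. Both probe sets stayed within 0.33 over the first 4 arrays and were far lower on the mix array, with differences from DMSO of -4.64 (24.9-fold lower) and -3.75 (13.4-fold lower). Only 2.48% and 3.82% of all probe sets past the filter level had a difference as low or lower there.

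**Figure D1:**
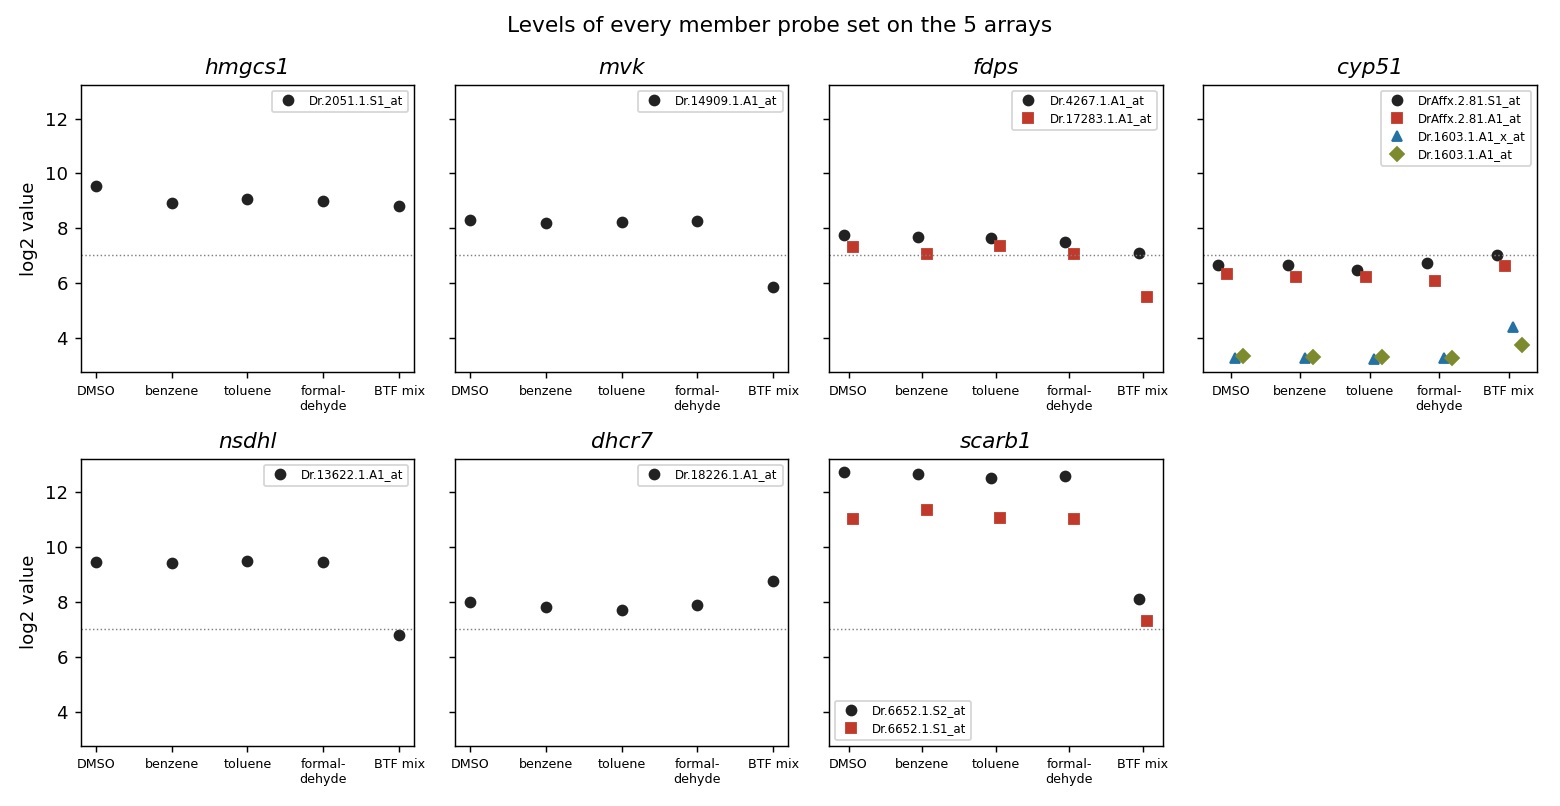
Log2 value (y axis) of each of the 12 member probe sets on the 5 arrays (x axis), 1 panel per gene; each point is 1 array, marker shapes are probe sets, and the dotted line is the filter level of 7.02. The mix array is far below the others for mvk, nsdhl and scarb1 and above them for dhcr7 and all 4 cyp51 probe sets; heights are not comparable between probe sets.

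On the single-compound arrays, no measured sterol gene was 2-fold apart from DMSO. The count was 0 of 7 genes with benzene, where 2.98% of all 6682 genes were at least 2-fold apart, 0 of 7 with toluene, where 2.75% were, and 0 of 7 with formaldehyde, where 3.83% were. At such background shares, a count of 0 among 7 genes is near the background and sets these genes apart from no others. The median difference over the 7 genes was -0.076 with benzene, -0.17 with toluene and -0.091 with formaldehyde. The medians over all genes were -0.0057, 0 and -0.016. The toluene median of the 7 is the value of cyp51, which was below the filter level on the DMSO and single-compound arrays.

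Within that narrow range hmgcs1 differed most. Over the DMSO and single-compound arrays its highest and lowest values were 0.61 apart, a spread as wide as or wider than that of 77.3% of probe sets past the filter level. The same spread was 0.27 for dhcr7 (36.9%), 0.14 for mvk (13.7%) and 0.087 for nsdhl (5.77%). With benzene, 3.44% of probe sets had a difference as low as that of hmgcs1 or lower, with toluene 6.93%, and with formaldehyde 9.14%.

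The 3 comparisons share the DMSO array, so the low hmgcs1 values with all 3 compounds are not separate observations. DMSO was above every single-compound array for 5 of the 7 genes, hmgcs1, mvk, fdps, dhcr7 and scarb1, beside 31.2% of all genes, and all 3 comparisons count that array again. For fdps and scarb1 this held only on the probe set that stood for the gene. The other fdps probe set read 7.34 with toluene and 7.32 with DMSO. The other scarb1 probe set read 11.35 with benzene and 11.04 with DMSO. A margin at least as large as the smallest of hmgcs1, 0.45, was found for 2.38% of all genes, and among the 7 for hmgcs1 only; this margin was chosen after its values were seen. Set against the mean of the other single-compound arrays instead of DMSO, hmgcs1 lay at -0.13 with benzene, 0.12 with toluene and 0.014 with formaldehyde. The 3 exposed arrays thus lay close to each other, and the difference was between them and DMSO.

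The probe sets of fdps, cyp51 and scarb1 disagreed in some comparisons and lay close in others. With benzene, scarb1 was at -0.07 on the stronger probe set and 0.31 on the other, and fdps at -0.076 and -0.24. With toluene, fdps was at -0.10 and 0.018, and scarb1 at -0.22 and 0.038. With formaldehyde, the cyp51 probe sets ran from -0.28 to 0.089, while those of fdps lay together at -0.23 and -0.24 and those of scarb1 at -0.14 and -0.014. The median gap between probe sets of 1 gene, over the 864 genes, was 0.18 with benzene, 0.18 with toluene and 0.19 with formaldehyde. Of the member differences that stood for a gene, those of hmgcs1 exceeded it with all 3 compounds, those of dhcr7 and scarb1 with toluene, and that of fdps with formaldehyde. For scarb1 with toluene, the gap between its own 2 probe sets, 0.26, was wider than that difference.

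Toluene carries a methyl group that benzene lacks. Doses are not given, so their values are only set side by side: no member probe set differed by more than 0.27 between the 2 arrays, and 0 of 7 genes were at least 2-fold apart, beside 1.6% of all genes. The largest gap was that of the second scarb1 probe set, 11.35 with benzene and 11.08 with toluene.

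**Figure D2:**
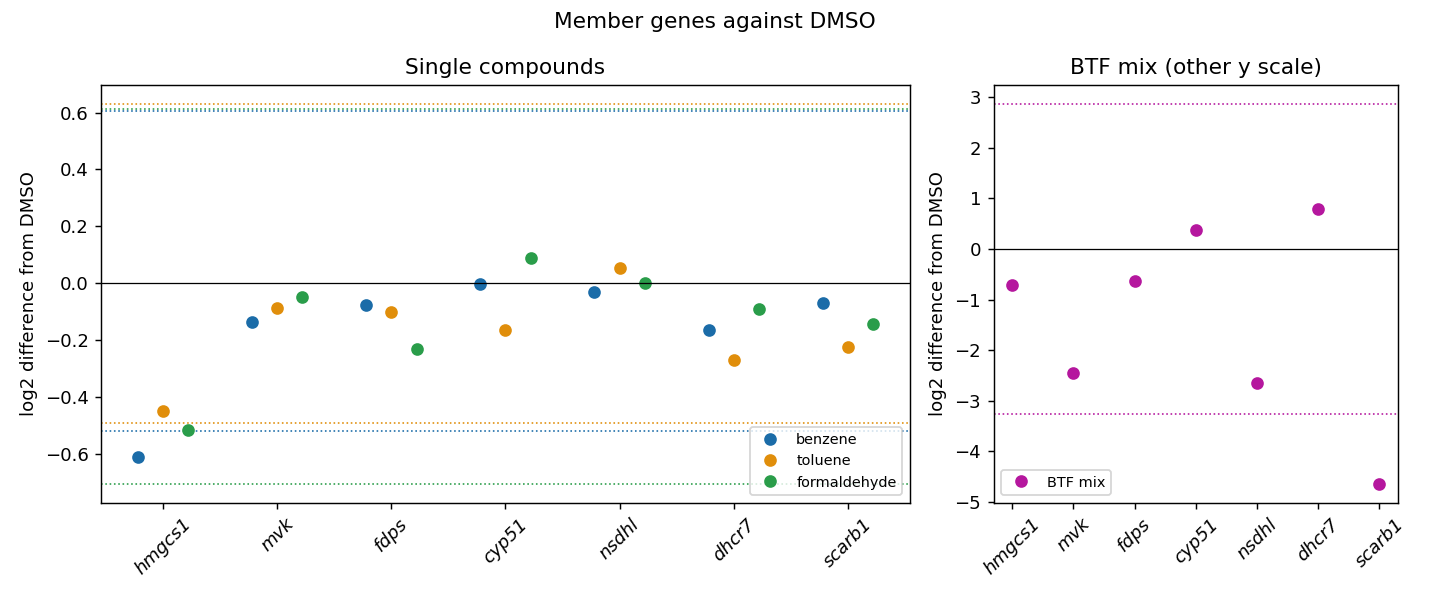
Log2 difference from the DMSO array (y axis) for each member gene (x axis), with the single compounds on the left and the BTF mix on the right on another scale; dotted lines in the same colours are the 5th and 95th percentiles over all 6682 genes. In the left panel hmgcs1 is the lowest gene with each compound, and in the right panel scarb1 is the only gene outside the dotted lines, at -4.64.

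With the BTF mix the genes split. Of the 7, 3 were at least 2-fold lower than with DMSO, namely scarb1, nsdhl and mvk, where 35.8% of all genes were at least 2-fold lower. None was at least 2-fold higher as deposited, beside 23.2% of all genes, although dhcr7, the highest at 0.78, passed 2-fold after quantile or cyclic loess normalization; cyp51 lay at 0.38. The second fdps probe set, which did not stand for its gene, was past 2-fold as well. Since 59% of all genes were at least 2-fold apart in 1 direction or the other, 3 of 7 is near the background, and no more can be read from the count. Of the 6 member genes that reached the filter level on the DMSO array, 3 were at least 2-fold lower with the mix, beside 42.1% of all such genes. The same 3 genes were also at least 2-fold below every one of the other 4 arrays, beside 30.6% of all genes.

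The median of all genes with the mix was itself -0.36, and quantile normalization of the deposited values moved it to -0.10 and cyclic loess to 0.0039. Relative to that median of -0.36, scarb1 lay at -4.28, nsdhl at -2.30, mvk at -2.09, hmgcs1 at -0.35, fdps at -0.28, cyp51 at 0.73 and dhcr7 at 1.14. The direction for hmgcs1 was not stable to the scaling: its difference from DMSO was -0.70 as deposited, -0.33 after quantile normalization and 0.085 after cyclic loess. Those of scarb1, nsdhl and mvk stayed below -1 under both scalings, though nsdhl moved to -1.88 with cyclic loess. That of dhcr7 stayed above 0, at 1.16 and 1.27. Over all genes, the share of higher calls among those at least 2-fold apart was 39.3% as deposited, 45.4% after quantile normalization and 51.3% after cyclic loess.

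The oocyte and tissue markers moved with these values, and their part in them was not tested. In bulk RNA, fewer cells of a type and less RNA per cell cannot be told apart. The summed signal of the 12 oocyte markers, as log2, was 16.73 to 16.87 on the first 4 arrays and 10.38 with the mix, where 10 of the 12 were below the filter level. The summed signal of the 18 liver markers was 14.99 to 15.64 on the first 4 arrays and 16.87 with the mix, and that of the 14 intestine markers 13.00 to 14.65 and 16.10. Of 7 testis markers, 5 were below the filter level on each array. The marker lists also differed among the single compounds: the oocyte list had medians of -0.046, 0.0066 and 0.026, while the exocrine pancreas list lay at 1.34 with benzene, 0.95 with toluene and -3.13 with formaldehyde. The liver list lay at -0.13, -0.29 and 0.51. Of 7 fasting markers past the filter level, 5 were at least 2-fold higher with the mix and 1 at least 2-fold lower. Of all genes, 23.2% and 35.8% were. At least pdk2b of these passed only through the mix array, and the part of this list was not tested either.

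**Figure D3:**
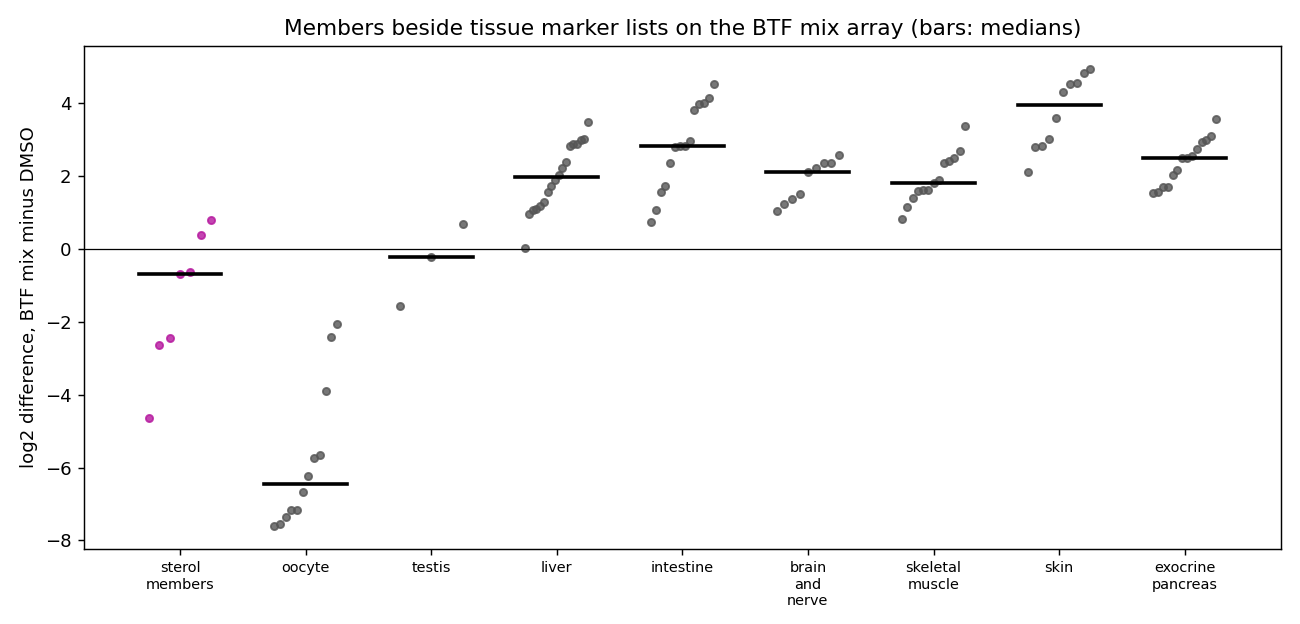
Log2 difference, BTF mix minus DMSO (y axis), of the 7 member genes and of 8 tissue marker lists (x axis). Only genes past the filter level are drawn, some of which passed only through the mix array. Each point is a gene and bars are medians. The member genes span -4.64 to 0.78 and overlap both sides. Their median, -0.70, lies between that of the oocyte markers, -6.46, and that of the testis list, -0.22, from 3 genes. The medians of the liver, intestine, brain, muscle, skin and pancreas lists ran from 1.80 to 3.93.

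Another 4 enzymes of the same pathway were measured: acat2, fdft1, lbr and msmo1. Thiolase acat2 makes the acetoacetyl-CoA that hmgcs1 uses, and its level was 9.69 with DMSO, 9.51, 9.46 and 9.47 with benzene, toluene and formaldehyde, and 8.42 with the mix. Squalene synthase fdft1 commits farnesyl units to sterols and read 6.86, 6.86, 6.44 and 6.65 on the first 4 arrays and 7.27 with the mix. The sterol reductase lbr, which is also a receptor of the nuclear lamina, read 10.12, 9.74, 10.51 and 9.75, and 7.88 with the mix. The methylsterol oxidase msmo1, which acts just before nsdhl, read 6.77, 7.02, 6.84 and 6.10, and 8.30 with the mix.

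These 4 also differed in direction with the mix. Of them, fdft1 reached the filter level only on the mix array, so its place in all counts depends on its level there. Apart from the mix array, msmo1 reached that level only with benzene, at 7.02. Against DMSO, lbr was at -2.24 (-1.61 on its other probe set) and acat2 at -1.27, while msmo1 was at 1.53 and fdft1 at 0.40. Over the 10 measured enzymes of sterol synthesis, with scarb1 left out, 4 were at least 2-fold lower with the mix, 1 was at least 2-fold higher, and the median was -0.67; with 35.8% of all genes lower and 23.2% higher, the count of 4 is near the background. On the single-compound arrays, 0 of the 10 were at least 2-fold apart. Of all genes, 2.98% were with benzene, 2.75% with toluene and 3.83% with formaldehyde, so this count too is near the background. Among the differences with single compounds, msmo1 with formaldehyde was at -0.67 and fdft1 with toluene at -0.42. In both of these, the DMSO and the exposed array were below the filter level. The reductase lbr was at 0.39 with toluene but -0.39 with benzene and -0.37 with formaldehyde.

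Neighbouring steps did not move as a block with the mix. The mevalonate kinase mvk was at -2.44. Further along, fdps lay at -0.64 on the probe set that stood for it and -1.82 on its other, and fdft1 at 0.40. The size of the gap between mvk and fdps thus depends on which fdps probe set is read. Late in the pathway, msmo1 at 1.53 and nsdhl at -2.65 act on the same ring methyl groups, and dhcr7 lay at 0.78. On the probe sets that stood for the genes, values at least 2-fold lower were found among early enzymes (acat2 and mvk) and late ones (lbr and nsdhl). Those above DMSO were found from fdft1 onwards. Among those above DMSO, fdft1 and cyp51 reached the filter level only on the mix array, and msmo1 only there and, at 7.02, with benzene. Only dhcr7 among them reached it on the DMSO array.

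**Figure D4:**
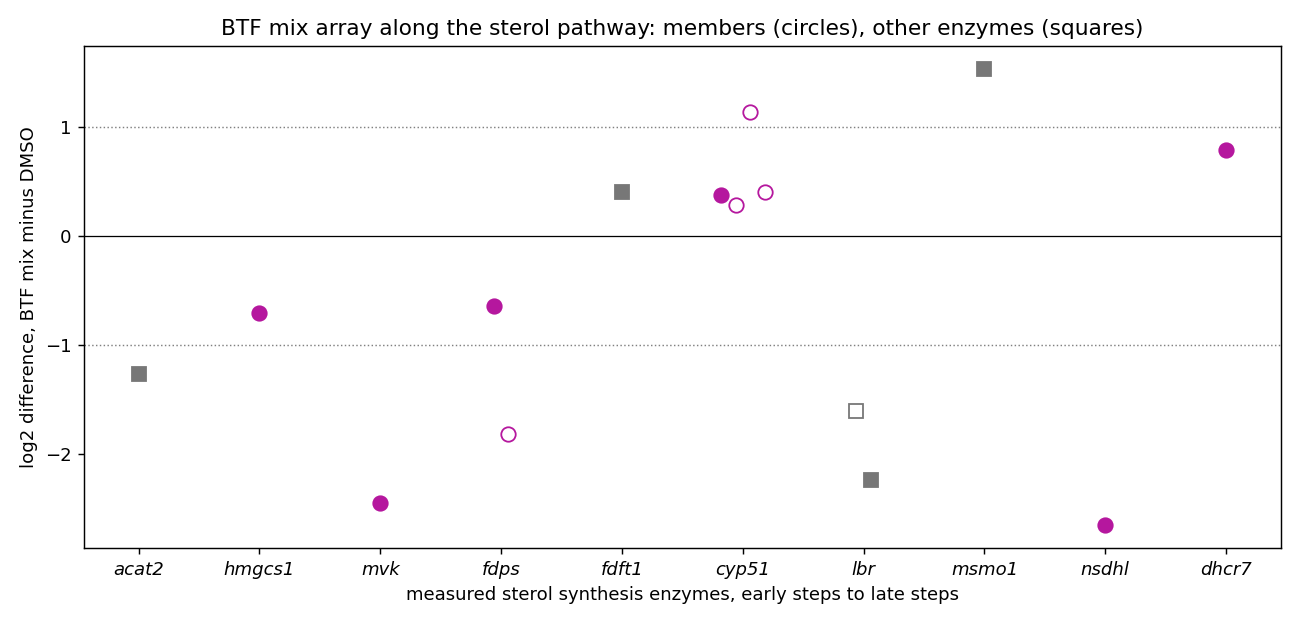
Log2 difference, BTF mix minus DMSO (y axis), for the 10 measured sterol synthesis enzymes from early to late steps (x axis); circles are members, squares the other 4 enzymes, filled symbols the probe set that stands for the gene, open symbols its other probe sets, and dotted lines mark 2-fold. Values range from -2.65 for nsdhl to 1.53 for msmo1, with no single direction along the pathway.

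The isoprenoid branch, which leaves the pathway at farnesyl pyrophosphate, held differences below 2-fold with the single compounds. Of its 12 listed genes 8 were measured past the filter level. None was at least 2-fold apart with a single compound, beside 2.98% of all genes with benzene, 2.75% with toluene and 3.83% with formaldehyde. With the mix, 3 were at least 2-fold lower, near the 35.8% of all genes that were. The geranylgeranyl pyrophosphate synthase ggps1 read 10.40 with DMSO, 9.70, 9.70 and 9.71 with benzene, toluene and formaldehyde, and 8.04 with the mix. Its differences with the single compounds were -0.70, -0.70 and -0.68, beside 5th percentiles over all genes of -0.52, -0.49 and -0.71. Its other 2 probe sets were also highest with DMSO, with differences of -0.35 to -0.70 on the single-compound arrays. The farnesyltransferase subunits went apart: fnta was at 0.47, 0.52 and 0.33 with the 3 single compounds and fntb at -0.32, -0.21 and -0.25. With the mix, ggps1 was at -2.36 (-1.18 and -1.93 on its other probe sets) and fntb at -1.40. The gene pdss1, which makes the ubiquinone side chain, was at -1.23 there. Its other probe set was at -0.89, so the 2-fold line falls between its probe sets. The prenyltransferase subunit pggt1b was at -0.41 with formaldehyde.

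Of 14 genes of sterol sensing, 5 were measured past the filter level, and srebf1, srebf2 and scap were not among those measured. No member of this list was 2-fold apart with a single compound, beside 2.98% of all genes with benzene, 2.75% with toluene and 3.83% with formaldehyde. Insig1, the SREBP brake that is itself an SREBP target, read 7.70 with DMSO, 7.71 with benzene, 7.90 with toluene, 7.72 with formaldehyde and 8.90 with the mix on the probe set of highest mean. Its probe sets disagreed on the mix array, with differences of 1.20, 0.26 and -0.81, so no direction can be given for it there. The sterol receptor nr1h3 read 6.19 with DMSO, 6.17 with benzene, 6.06 with toluene, 6.32 with formaldehyde and 8.15 with the mix. Its difference with the mix was 1.96. This gene reached the filter level only on the mix array, so its place among the 5 depends on its level there. The ubiquitin ligase syvn1 was lower with the mix, at -1.89. With formaldehyde syvn1 was at -0.43 and the SREBP-cleaving protease mbtps1 at -0.37.

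Among genes of sterol uptake and transport, none of 6 past the filter level was 2-fold apart with a single compound. Of all genes, 2.98% were with benzene, 2.75% with toluene and 3.83% with formaldehyde. The lipoprotein receptor vldlr, which in chicken oocytes takes up yolk, read 12.82 with DMSO, 12.30 with benzene, 12.26 with toluene, 12.02 with formaldehyde and 10.33 with the mix. Its difference from DMSO with formaldehyde was -0.80, and -0.48 and -0.94 on its other probe sets. With the mix it was -2.49, and -0.91 and -3.69 on those. The probe set at -0.48 and -0.91 was below the filter level on every array. Caveolin cav1, of the cholesterol-rich membrane pits, was at 0.87 with benzene, 0.46 with toluene and -0.68 with formaldehyde, but at 2.98 with the mix. Its other probe sets ran from 0.066 to 0.76 with benzene and from 1.18 to 3.08 with the mix. They differed in sign with toluene (-0.070 to 0.61) and formaldehyde (-0.41 to 0.070). Those that differed in sign from the main probe set were below the filter level on every array. The other past that level shared its sign, at 0.61 with toluene and -0.41 with formaldehyde. The ubiquitin ligase mylipa, which in mammals degrades lipoprotein receptors, was at 0.39 with formaldehyde and -2.96 with the mix. In all, 3 of the 6 were at least 2-fold lower with the mix and 2 at least 2-fold higher, beside 35.8% and 23.2% of all genes.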

How the data were processed

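The authors deposited log2 values, 1 for each probe set on each of 5 arrays. Affymetrix Expression Console 1.1, RMA and MAS5 are named in the submitters' processing notes without their roles; the log base was taken from the range, 3.15 to 15.04. Quantile normalization, a part of RMA, makes array totals alike. Samples were grouped by the treatment in the labels.

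Control probe sets (115) were left out. Of the other 15502, 10795 had 1 symbol, 135 several and 4572 none in the platform annotation. Of those with 1 symbol, 10711 were matched through Entrez identifiers to RefSeq's gene table (GRCz12tu) and took its symbol, changed or not. Members kept the symbol of the platform table. No coordinates or sequences were used. Differences of log2 values were computed with Python 3.11.15, pandas 2.3.3 and numpy 2.4.6, and other normalizations with limma 3.58.1 in R 4.3.3. The step that counts 2-fold differences was checked on a simulated table with known changes; no statistical test was run on the arrays. Named were all members, the other measured sterol enzymes, the 3 genes of each related list with the largest differences with a single compound and with the mix, and the 5 nearest genes. The fntb values with single compounds were added. Members and lists were chosen with earlier results of these data known. Alternatives were 2 normalizations, another reference, the mean of probe sets, other level filters and a 1.5-fold line.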

Additional observations from a re-analysis of the deposited data

How the results depend on the processing

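With 1 array per condition, no spread between replicates exists, and the number of arrays limits every value. A value was taken to have moved where it changed by more than the median gap between probe sets of a gene. Of 64 recomputed counts 59 stayed within 1.5 times. Most of the 64 were single-compound counts that were 0 before and after, so this share says little. With a 1.5-fold line in place of 2-fold, 5 members in place of 3 were lower with the mix (45.1% of all genes at that line) and 1 in place of 0 was higher (29.5%), and 1 in place of 0 was lower with benzene (3.76%). After quantile normalization and after cyclic loess, 1 member in place of 0, dhcr7, was at least 2-fold higher with the mix. When probe sets were averaged per gene, 4 of 6 members were at least 2-fold lower with the mix, beside 35.1% of all genes. There fdps lay at -1.23. The median over members with the mix, -0.70, was -1.84 when probe sets were averaged per gene, where cyp51 dropped below the filter level, and -1.68 with the level filter at the 75th percentile, which left 4 genes; after cyclic loess, which left 6, it was -1.17. Without scarb1, an alternative chosen after seeing the data, it was -0.67. Of 104 recomputed differences of single members 8 moved, and 0 of those past 2-fold changed sign. With the single compounds the line for having moved, 0.18 to 0.19, was wider than most member differences, so staying within it says little. Those that moved there were hmgcs1 with each compound, dhcr7 with formaldehyde and scarb1 with benzene. No paired analysis was possible because each condition has 1 array and all carry the same replicate number.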

Other observations

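Genes that use sterol rather than make it were also measured. Of 21 listed genes for bile acids and steroids, 5 were measured past the filter level, and 2 were at least 2-fold lower with the mix and 2 at least 2-fold higher, beside 35.8% and 23.2% of all genes. The steroid hydroxylase cyp17a1 read 10.63 with DMSO, 10.10 with benzene, 10.21 with toluene, 10.74 with formaldehyde, but 5.67 with the mix, a difference from DMSO of -4.96 (-3.58 on its other probe set), and the steroid dehydrogenase hsd3b2 was at -3.01. By contrast star, which brings cholesterol into mitochondria, read 6.30, 6.89, 7.11 and 6.13 on the first 4 arrays and 9.80 with the mix. Apart from the mix array, star reached the filter level only with toluene, so its place among the 5 depends on the arrays where it was high. With the single compounds, the bile acid transporter slc10a2 was at -0.37 with benzene, 0.85 with toluene and -0.76 with formaldehyde. The bile acid synthesis enzyme hsd3b7 was at 0.29, 0.49 and 0.78.

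Of 18 listed genes of fatty acid synthesis, 4 were measured past the filter level. None was 2-fold apart with a single compound, beside 2.98% of all genes with benzene, 2.75% with toluene and 3.83% with formaldehyde. The acetyl-CoA carboxylase acaca was at -0.41 with benzene, -0.31 with toluene and -0.33 with formaldehyde, but at 0.84 with the mix. The desaturase fads2 was higher with the mix by 1.00 and the acetyl-CoA synthetase acss2 lower, at -0.88; with benzene acss2 was at -0.32 and the malic enzyme me1 at -0.40.

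Among the 6250 genes past the filter level that have a usual name, the 5 outside the members whose 4 differences from DMSO lay nearest the members' median differences were zdhhc8b, cdc34b, plekha1a, txnrd3 and prss59, at root mean square distances of 0.027 to 0.038 over 5 arrays. The members lay further from their own median, between 0.083 for fdps and 1.97 for scarb1, so that median stands for no single member.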
